A study of Mus musculus with 6 samples.

Results

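The Hox cluster genes are the protein-coding genes of the Hoxa, Hoxb, Hoxc and Hoxd clusters, taken here by symbol from the expression table of all 36976 genes. They make up 40 rows of that table with 39 distinct symbols, because Hoxa3 is listed under 2 identifiers. On mm9, the build of the files, the 12 Hoxa rows span chr6:52105366-52210874 on the minus strand, the 10 Hoxb rows chr11:96055630-96229570, the 9 Hoxc rows chr15:102751534-102867274 and the 9 Hoxd rows chr2:74506367-74603200, these 3 on the plus strand. The row ENSMUSG00000059723.6, called the second Hoxa3 row below, shares all of its 2438 exon bases with Hoxa2, the main Hoxa3 row and the antisense transcript 2700086A05Rik. The libraries came from long-term (LT) stem cells of a mouse model of chronic myeloid leukaemia (CML), 3 of genotype Gdpd3+/+ and 3 of genotype Gdpd3-/-, both on a C57BL/6 background. Gdpd3 encodes a lysophospholipase D, and the comparison asks which transcripts differ when it is disrupted by a short germline deletion made by genome editing. Every mouse of both groups carried a pair of transgenes (tet-CML), SCL-tTA, whose transactivator is driven by the SCL regulatory element, and TRE-BCR-ABL1, so that the oncogene BCR-ABL1 comes on when doxycycline is withdrawn. Cells were collected 5 weeks after that induction by sorting bone marrow for CD150+CD48-CD135-Lineage-Sca-1+cKit+ cells. They were drawn from 22 male and 12 female Gdpd3+/+ mice and from 5 male and 5 female Gdpd3-/- mice, more animals than libraries in both groups. How they were divided among the libraries, and the sex make-up of a single library, is not given in the sources used here.

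Hox genes encode homeodomain transcription factors that stand in 4 clusters, in the same order along the chromosome as their domains along the body axis, and genes at matching places in different clusters form a paralog group. In blood, the Hoxa cluster and part of Hoxb are active in stem and progenitor cells and are shut down as cells mature. Hox proteins bind DNA together with TALE homeodomain cofactors of the Meis, Pbx and Pknox families. The MLL complexes with menin keep the clusters active, and Polycomb complexes keep them silent. Hoxa9 with Meis1 is a known driver of acute leukaemia.

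Depth was 49.8, 62.8 and 61.3 M counts on genes in Gdpd3+/+ replicates 1, 2 and 3, and 21.3, 36.4 and 25.1 M in Gdpd3-/- replicates 5, 6 and 7. Expression is given as FPKM, which corrects for gene length and for each library's total on genes, so that levels can be compared between genes. Gdpd3 itself was at 7.30, 3.29 and 2.95 FPKM in the Gdpd3+/+ libraries and at 0.1099, 0.0129 and 0.681 FPKM in the Gdpd3-/- libraries, which do not overlap (limma, adjusted p = 0.0588). All 10 LT stem cell markers, among them Kit, Ly6a (Sca-1) and Slamf1 (CD150), were present in every library and 0 passed the test (limma; 4 at an unadjusted p under 0.05). Transcripts of Flt3 (CD135) and Cd48, whose proteins the gate left out, were present too, with means of 10.5 and 41.9 FPKM in Gdpd3+/+ and 40.4 and 65.9 FPKM in Gdpd3-/-. The summed FPKM of 9 neutrophil granule markers was 29697 to 32469 in Gdpd3+/+ and 8337 to 13756 in Gdpd3-/-, where 5 of the 9 were called lower, and that of 13 skeletal muscle markers was 899 to 1328 and 2211 to 16559, lowest in Gdpd3-/- replicate 7. The B and plasma cell list, mostly the immunoglobulin heavy chain gene Ighm, summed to 36512 to 39735 FPKM and 9343 to 19301 FPKM (limma; 0 called, 3 lower at an unadjusted p under 0.05). The part of these differences in the Hox values was not tested.

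The Hoxa cluster held nearly all Hox expression in both genotypes. Its 12 rows summed to 34.8, 32.1 and 32.6 FPKM in the Gdpd3+/+ libraries and to 59.7, 48.2 and 52.7 FPKM in the Gdpd3-/- libraries, a ratio of the means of 1.61. Every Gdpd3-/- library was above every Gdpd3+/+ library. The same held for the sums of Hoxb, Hoxc and Hoxd given below, and for 23.5% of all genes tested. The Hoxa ratio became 1.38 after scaling by a trimmed mean of M values and 1.44 after quantile normalization. In bulk RNA, a larger share of Hox-expressing cells and more Hox RNA per cell cannot be told apart. The 10 Hoxb rows summed to 2.43, 2.45 and 2.61 FPKM against 2.68, 2.96 and 3.18 FPKM, a ratio of 1.18 that became 1.01 after scaling by a trimmed mean of M values and 0.717 after quantile normalization, so its direction depends on the scaling. The 9 Hoxc rows summed to 0.543, 0.159 and 0.233 FPKM against 1.05, 2.97 and 0.703 FPKM. The 9 Hoxd rows summed to 0.0139, 0.0110 and 0.00423 FPKM against 1.77, 1.92 and 0.212 FPKM. The Hoxc and Hoxd sums rest on few counts, 24 to 56 and 1.5 to 4 in the Gdpd3+/+ libraries.

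Shares within a library are left as they are by any scaling that multiplies a whole library by 1 factor, though not by quantile normalization. Hoxa made up 92.0% to 92.5% of the summed Hox FPKM in Gdpd3+/+ and 86.0% to 92.8% in Gdpd3-/-, which overlap. The Hoxb share was 6.45%, 7.06% and 7.37% in the Gdpd3+/+ libraries and 4.12%, 5.28% and 5.61% in the Gdpd3-/- libraries. Here all 3 Gdpd3-/- libraries lay below all 3 Gdpd3+/+ libraries, although their Hoxb sums in FPKM as deposited all lay above.

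**Figure D1:**
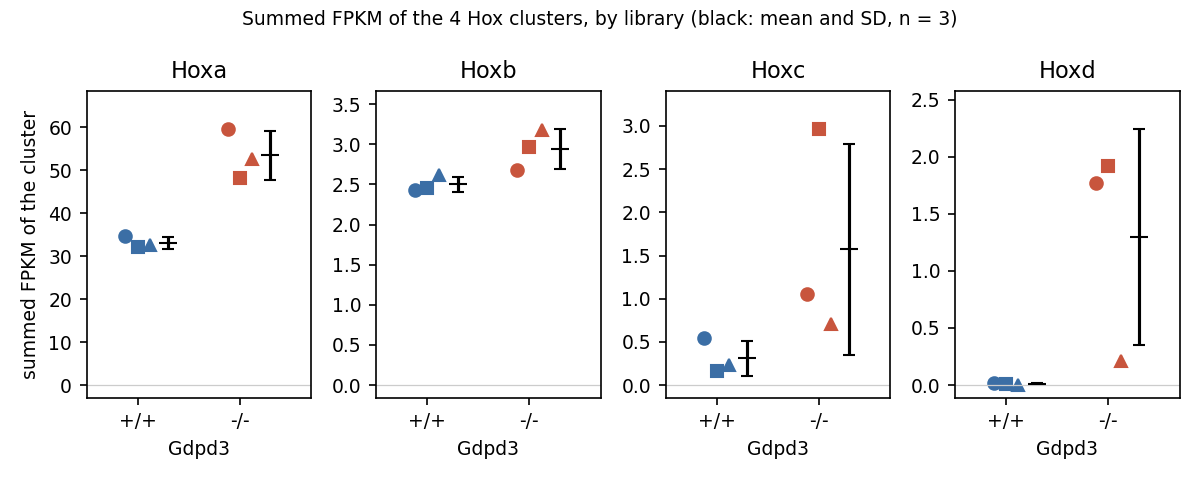
Summed FPKM of the Hoxa, Hoxb, Hoxc and Hoxd genes (vertical axes, a scale of its own for each cluster) in the 3 Gdpd3+/+ libraries (blue) and the 3 Gdpd3-/- libraries (red); circle, square and triangle are replicates 1, 2, 3 and 5, 6, 7, and black marks are means with SD. Hoxa runs from 32.1 to 34.8 FPKM in Gdpd3+/+ and from 48.2 to 59.7 FPKM in Gdpd3-/-, and Gdpd3-/- replicate 7 has the lowest Hoxc and Hoxd sums of its group.

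Within Hoxa, Hoxa9 (ENSMUSG00000038227.7, mm9 chr6:52173099-52181088), a posterior gene that supports the self-renewal of haematopoietic progenitors, had the highest level in both genotypes. It was at 15.8, 16.8 and 16.8 FPKM in the Gdpd3+/+ libraries and at 27.4, 23.5 and 26.1 FPKM in the Gdpd3-/- libraries. The groups do not overlap, and each library held 2039 to 3672 counts of Hoxa9. The fitted log2 fold change, on the log2(FPKM + 0.1) scale, was 0.64 (SE 0.11), a 1.55-fold rise (limma, adjusted p = 0.0483). Hoxa5, a mid-cluster gene known to favour myeloid over erythroid differentiation, was at 2.97, 2.42 and 2.89 FPKM in Gdpd3+/+ and at 5.48, 6.58 and 6.55 FPKM in Gdpd3-/-, with 219 to 450 counts a library. Again all Gdpd3-/- libraries were the higher ones, and the log2 fold change of 1.14 (SE 0.19) is a 2.20-fold rise (limma, adjusted p = 0.0466).

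Hoxa5 and Hoxa9 were the 2 Hox genes called higher of the 22 tested, and 0 were called lower (limma; voom, a limma method that weights each value by its count, gave the same 2 counts, and 0 were lower at an unadjusted p under 0.05). Over all 24689 genes tested, 1.09% were called higher and 0.616% lower. Both calls lie close to the threshold. Scaling by a trimmed mean of M values left log2 fold changes of 0.92 for Hoxa5 and 0.42 for Hoxa9 (limma, adjusted p = 0.0777 and 0.108), and the 2 genes also lost the call when any 1 of the 3 Gdpd3+/+ libraries, or Gdpd3-/- replicate 5, was left out (limma, adjusted p of 0.0629 to 0.244 for Hoxa5 and 0.0771 to 0.247 for Hoxa9), as Hoxa5 did without Gdpd3-/- replicate 6 (adjusted p = 0.0544). Without Gdpd3-/- replicate 7, 4 of 23 Hox rows tested were called, Hoxa2 and Hoxc13 in addition. In that setting 3413 of all 24056 genes tested were called. The sign was positive in all 17 alternatives for both genes, with log2 fold changes of 0.92 to 1.23 for Hoxa5 and 0.42 to 0.70 for Hoxa9. Across all genes tested, the median was itself at 0.24 (log2) and became 0.04 after scaling by a trimmed mean of M values. Relative to that median, Hoxa5 stood at 0.90 and Hoxa9 at 0.40, and after that scaling at 0.88 and 0.37.

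**Figure D2:**
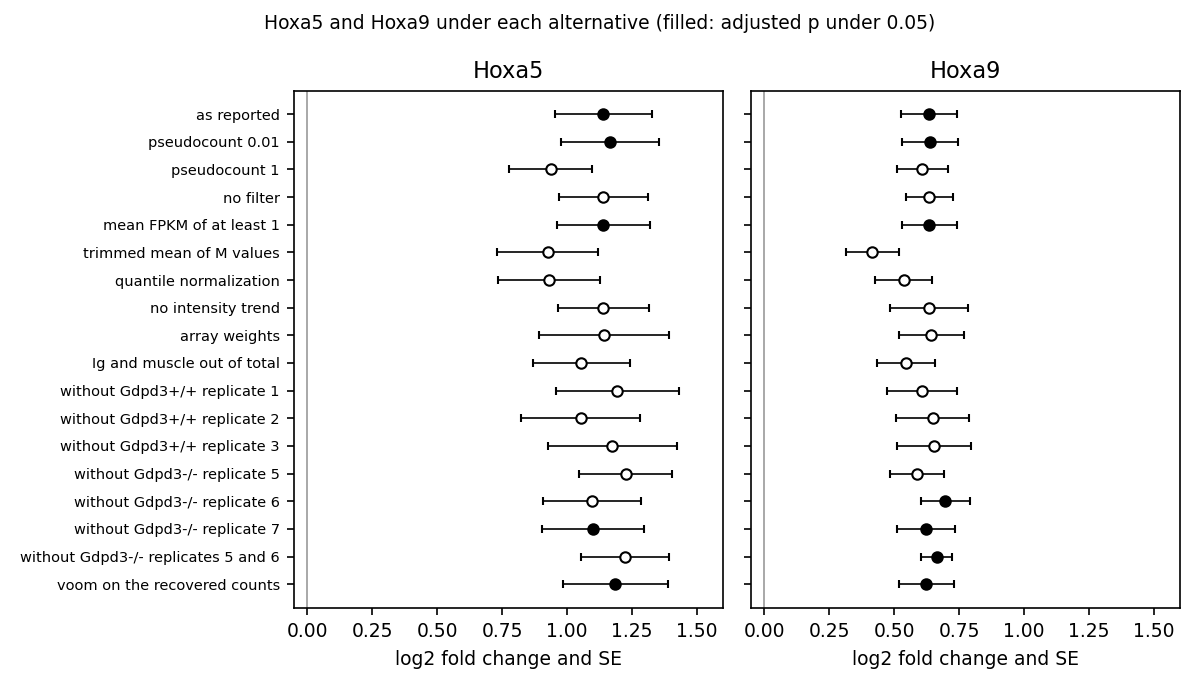
Log2 fold change of Hoxa5 and Hoxa9, Gdpd3-/- over Gdpd3+/+ (horizontal axes, bars are SE), as reported and under each of the 17 alternatives (vertical axis); filled points have a limma adjusted p under 0.05. All points are above 0, from 0.92 to 1.23 for Hoxa5 and from 0.42 to 0.70 for Hoxa9, while 4 alternatives for Hoxa5 and 6 for Hoxa9 pass the threshold.

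The stretch of DNA just upstream of the RefSeq start of each of these 2 genes is given on GRCm38.p6, a later build than the mm9 of the files, because both genes moved in the same direction. Hoxa5 and Hoxa9 lie on the minus strand of chromosome 6, so each window is printed as its reverse complement, 5′ to 3′, ending at the base before the transcript start. The windows of 250 bases are chr6:52204588-52204837 for Hoxa5 and chr6:52227371-52227620 for Hoxa9. The RefSeq starts of the 2 genes lie 22783 bases apart, whereas the 5′ ends of their rows in the deposited table lie 26502 bases apart, so that the starts are not the same in both sources and the Hoxa9 window need not be upstream of all transcripts counted in its row. Capitals mark matches to any of 4 motifs searched on both strands, which are TGACAG (Meis and Pknox half-site), TGATTNAT (Pbx-Hox site), TATAAA (a core promoter element) and CCAAT (bound by NF-Y).
Hoxa5: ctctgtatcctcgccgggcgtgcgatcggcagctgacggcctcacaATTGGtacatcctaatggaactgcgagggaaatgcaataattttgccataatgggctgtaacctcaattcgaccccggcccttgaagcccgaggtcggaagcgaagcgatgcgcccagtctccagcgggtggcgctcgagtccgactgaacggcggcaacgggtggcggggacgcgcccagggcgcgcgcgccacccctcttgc
Hoxa9: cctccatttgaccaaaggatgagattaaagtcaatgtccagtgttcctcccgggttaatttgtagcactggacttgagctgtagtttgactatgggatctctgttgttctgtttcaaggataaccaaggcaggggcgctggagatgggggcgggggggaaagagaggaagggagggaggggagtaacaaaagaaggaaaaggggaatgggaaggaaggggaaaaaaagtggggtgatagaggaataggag
The Hoxa5 window holds 1 match, CCAAT on the opposite strand, and the Hoxa9 window holds 0 of the 4. The window of Hoxa5 has 28 CpG dinucleotides and that of Hoxa9 has 3, against a median of 6 over all 32851 windows of this length and of 12.5 over the 24 windows of the 22 Hox symbols with an entry. Of all windows, 33.8% hold CCAAT, 15.9% TGACAG, 12.4% TATAAA and 2.82% TGATTNAT. Among the 24 Hox windows, CCAAT was found in 14, that of Hoxa5 included, and TATAAA in 4. TGACAG was found upstream of Hoxa2 and Hoxa3, and TGATTNAT upstream of Hoxa2 and in 1 of the windows of Hoxd11. The matches are a description of these letters.

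Next in level after Hoxa9 came Hoxa7, at 7.49, 6.27 and 6.29 FPKM in Gdpd3+/+ and 10.9, 6.85 and 9.61 FPKM in Gdpd3-/-. Gdpd3-/- replicate 6 falls among the Gdpd3+/+ values, and the log2 fold change of 0.42 (SE 0.21) did not pass the test (limma, adjusted p = 0.283). Of the exon bases of Hoxa7, 586 of 2877 lie opposite the antisense transcript 2700086A05Rik, whose reads cannot be told apart from it without strand. Hoxa10, the posterior neighbour of Hoxa9 and known for its part in early myeloid cells, was at 5.18, 3.998 and 4.17 FPKM and at 5.36, 6.94 and 5.61 FPKM. All its Gdpd3-/- values were the higher ones, by as little as 5.18 to 5.36 FPKM, and the log2 fold change was 0.42 (SE 0.19; limma, adjusted p = 0.259). Hoxa6 was at 2.01, 1.05 and 0.887 FPKM and at 4.78, 1.71 and 2.15 FPKM, which overlap (log2 fold change 1.02, SE 0.49; limma, adjusted p = 0.271). Replicate 5 was well above the other Gdpd3-/- libraries, and replicate 1 above the other Gdpd3+/+ libraries.

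The anterior Hoxa genes were lower and more uneven between libraries. Hoxa4 was at 0.277, 0.319 and 0.558 FPKM in Gdpd3+/+ and at 2.54, 0 and 1.10 FPKM in Gdpd3-/-, with 86.5, 0 and 44.2 counts in replicates 5, 6 and 7. That spread leaves the direction open to the settings, since its log2 fold change of 0.54 (SE 1.18) turned to -0.31 with a pseudocount of 0.01, to -0.44 without Gdpd3-/- replicate 5 and to -0.84 with voom. Hoxa2 was at 0.518, 0.548 and 0.414 FPKM and at 1.88, 1.34 and 0.386 FPKM, the last of which is below every Gdpd3+/+ value (log2 fold change 0.92, SE 0.59; limma, adjusted p = 0.395). Hoxa3, on its main row, was even within groups, at 0.257, 0.308 and 0.260 FPKM and at 0.683, 0.673 and 0.648 FPKM. Its groups do not overlap and its log2 fold change was 1.04 (SE 0.38), but it did not pass (limma, adjusted p = 0.182), and 3515 of its 6566 exon bases are shared with other rows. The second Hoxa3 row had a log2 fold change of 0.71 (SE 0.42; limma, adjusted p = 0.358). Hoxa11 had 0.33 counts in a single Gdpd3+/+ library, and Hoxa13 was at 0 in all 6.

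**Figure D3:**
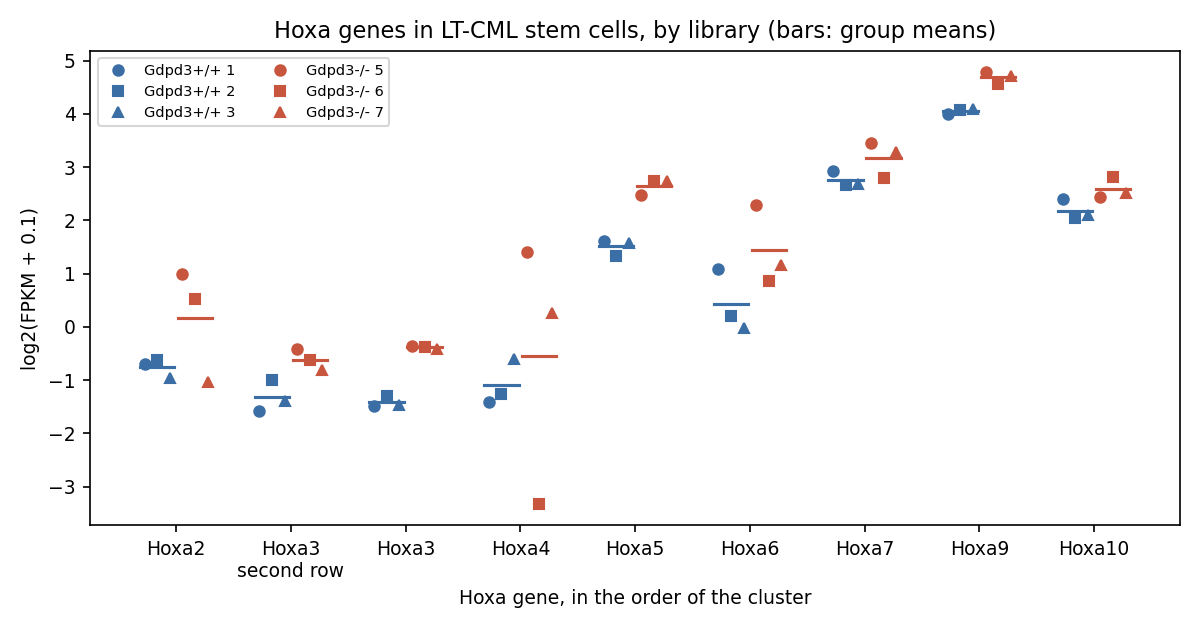
Log2(FPKM + 0.1) (vertical axis) of the 9 tested Hoxa rows in the order of the cluster (horizontal axis) in each Gdpd3+/+ library (blue) and Gdpd3-/- library (red), with bars at the group means. Hoxa5 and Hoxa9 separate the genotypes with room to spare, at 2.97 against 5.48 FPKM and 16.8 against 23.5 FPKM for the nearest libraries, whereas Hoxa4 in Gdpd3-/- runs from 0 to 2.54 FPKM.

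The order of levels in Gdpd3+/+ was Hoxa9, Hoxa7, Hoxa10, Hoxa5 and Hoxa6, with means of 16.5 ± 0.588, 6.68 ± 0.696, 4.45 ± 0.642, 2.76 ± 0.297 and 1.32 ± 0.608 FPKM (SD, n = 3). No 2 neighbours in that order overlapped. Below them came Hoxa2, Hoxa4 and the 2 Hoxa3 rows, at means of 0.275 to 0.493 FPKM, where Hoxa4 overlapped the others and Hoxa2, at 0.414 FPKM or more, lay above both Hoxa3 rows in all libraries. In Gdpd3-/- the order of the first 5 means was the same but for Hoxa5 and Hoxa10, at 6.20 ± 0.631 and 5.97 ± 0.853 FPKM (SD, n = 3), which overlapped. Hoxa10 also overlapped Hoxa7, and in replicate 6 it was the higher, at 6.94 against 6.85 FPKM. Lower down, the mean of Hoxa4, 1.22 FPKM, was just above that of Hoxa2, 1.20 FPKM. The main Hoxa3 row, at a mean of 0.668 FPKM, was above the second, at 0.556 FPKM. The 5 genes from Hoxa5 to Hoxa10 together made up 87.7% to 88.5% of the summed Hox FPKM in Gdpd3+/+ and 81.4% to 88.2% in Gdpd3-/-.

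Some proportions among the genes of the stretch separated the genotypes, with small gaps between the nearest libraries, and others overlapped. The ratio of Hoxa9 to Hoxa5 FPKM was 5.31, 6.92 and 5.83 in the Gdpd3+/+ libraries and 5.00, 3.58 and 3.99 in the Gdpd3-/- libraries, without overlap. Hoxa5 made up 6.97% to 8.15% of Hox FPKM in Gdpd3+/+ and 8.40% to 11.7% in Gdpd3-/-. Hoxa7 went the other way, with 17.7% to 19.8% and 12.2% to 16.9%. The share of Hoxa9 overlapped, at 41.8% to 48.2% and 42.0% to 46.0%, as did the ratios of Hoxa9 to Hoxa10 and to Hoxa7. With 3 libraries a group, an exact permutation test cannot give a p below 0.1 for any such value.

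Hoxb expression was low in both genotypes, and the direction of the difference in its sum depended on the scaling. Hoxb5, used as a marker of long-term stem cells, was at 0.947, 1.13 and 1.11 FPKM in Gdpd3+/+ and 0.633, 1.55 and 1.32 FPKM in Gdpd3-/-. The Gdpd3-/- libraries lie on both sides of the Gdpd3+/+ libraries (log2 fold change 0.05, SE 0.41; limma, adjusted p = 0.951), and the sign turned in 6 of the 17 alternatives. Hoxb4, known for expanding haematopoietic stem cells when overexpressed, was at 0.407, 0.362 and 0.361 FPKM and at 0.644, 0.218 and 0.451 FPKM, and Hoxb2 was at 0.461 to 0.711 FPKM and 0.440 to 1.05 FPKM. Hoxb2 and Hoxb3 share 1632 and 1140 exon bases with the antisense transcript Hoxb3os. The other tested Hoxb genes, Hoxb3, Hoxb6, Hoxb7 and Hoxb9, had group means of 0.0464 to 0.372 FPKM. Of the 7 tested Hoxb genes, 4 had a fitted log2 fold change above 0 and 3 below, from -0.60 (Hoxb9) to 0.71 (Hoxb6), and 0 were called (limma; 0 also at an unadjusted p under 0.05). Hoxb8 never passed 2 counts, and Hoxb1 and Hoxb13 were at 0 in all libraries.

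Hoxc and Hoxd genes, which pattern the posterior trunk and the limbs and are little used in adult blood, appeared as scattered low values. Of the 9 Hoxd rows, 8 were at 0 in every Gdpd3+/+ library, and 6 of these had counts in a Gdpd3-/- library. Hoxd8 had 6, 169 and 5.5 counts in Gdpd3-/- replicates 5, 6 and 7, or 0.102, 1.69 and 0.0797 FPKM. Hoxd9 had 58 counts in replicate 5, or 1.25 FPKM, and 0 in the other five libraries. Hoxc13 had 14 and 87 counts in replicates 5 and 6 and 0 in replicate 7 and in Gdpd3+/+. Each value thus rests on 1 library more than on the group. Set against a floor of 3 counts in each Gdpd3+/+ library, the group means were at least 32.7-fold higher for Hoxd8, 17.3-fold for Hoxd9 and 19.4-fold for Hoxc13, yet none passed the test (limma, adjusted p of 0.264, 0.506 and 0.287).

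Hoxc10 was above 0 everywhere, at 0.305, 0.00835 and 0.107 FPKM in Gdpd3+/+ and 0.724, 0.992 and 0.271 FPKM in Gdpd3-/-, which overlap (log2 fold change 1.73, SE 0.69; limma, adjusted p = 0.208). Hoxc9 had 57 counts in Gdpd3-/- replicate 6 and 18 or fewer in every other library, and Hoxc8 had 30.1 in that same replicate and at most 2 elsewhere. Hoxc11 went against this direction, with 11, 0 and 9 counts in Gdpd3+/+ and 0 in Gdpd3-/-. Hoxc4 and Hoxc6 held at most 7 counts in any library, and Hoxc5 had its 14 counts in Gdpd3-/- replicate 7. Hoxd3 had 4, 4 and 1.5 counts in Gdpd3+/+ and 5.5, 14 and 4.5 in Gdpd3-/-, Hoxd11 had 13 and 8 in replicates 5 and 7, and Hoxd4 had 14.5 in replicate 5. Hoxd1 and Hoxd10 had 10 and 1 counts in replicate 6, with 2 more of Hoxd1 in replicate 7, and Hoxc12, Hoxd12 and Hoxd13 were at 0 throughout.

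Rows at 0 in one genotype can only be equal or higher in the other, so both directions are given. Of the 14 Hox rows at 0 in every Gdpd3+/+ library, 8 were above 0 in a Gdpd3-/- library (57.1%), against 2603 of 5081 protein-coding rows of that kind (51.2%). Of the 9 Hox rows at 0 in every Gdpd3-/- library, 3 were above 0 in a Gdpd3+/+ library (33.3%), against 533 of 3011 protein-coding rows (17.7%). Rows of olfactory receptors, which blood cells are not expected to express, were above 0 for 2.40% to 3.197% in the Gdpd3+/+ libraries and 8.31% to 13.99% in the Gdpd3-/- libraries. The summed FPKM of 11 mesenchymal stroma markers was 8.56 to 9.36 in Gdpd3+/+ and 26.5, 31.9 and 14.5 in Gdpd3-/- replicates 5, 6 and 7. Their Hoxd, Hoxc and muscle sums had the same order. Most of each Gdpd3-/- sum was Dcn (11.3, 15.4 and 2.71 FPKM) and Pdgfrb (11.2, 9.67 and 9.89 FPKM), while Cxcl12 went the other way (log2 fold change -0.29). In 3 of the 11 every Gdpd3-/- library was above every Gdpd3+/+ library, against 23.5% of all genes tested. All 13 muscle markers had higher values in every Gdpd3-/- library than in any Gdpd3+/+ library (limma; 0 called, 13 at an unadjusted p under 0.05), and the endothelial sum was 1.52 to 2.08 and 1.45 to 5.19 FPKM. Of the mesenchymal markers, Pdgfrb was the 1 called higher, and Lum and Twist1 were at 0 in Gdpd3-/- replicate 5. The part of these in the Hoxc and Hoxd values was not tested.

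Of the whole set, 22 of the 40 rows passed the filter of a mean of 0.05 FPKM, 9 of Hoxa, 7 of Hoxb, 4 of Hoxc and 2 of Hoxd, and 8 of the 40 reached a mean of 1 FPKM in either genotype. Of the 22, 6 had every Gdpd3-/- library above every Gdpd3+/+ library, against 23.5% of all genes tested, and 0 had the reverse, against 8.27%. Among the 9 Hoxa rows there were 5 such rows, which include the second Hoxa3 row that shares its exons with Hoxa3. The fitted log2 fold change was above 0 in 19 of 22 members and in 9 of 9 Hoxa rows, against 65.1% of all genes, and above the median of all genes in 16 of 22 and 9 of 9, against 50%. Both Hoxa3 rows are among the 9, and Hoxa4 kept its sign in 13 of the 16 alternatives that tested it. Hoxa7 and Hoxa10 stood only 0.18 above the median of all genes (SE 0.21 and 0.19). At an unadjusted p under 0.05, 4 of 22 were higher, against 16.5%, a share near the background. The median log2 fold change was 0.71 over the 22, against 0.24 over all genes. Setting Hoxc13, Hoxd8 and Hoxd9 to their ratios against the count floor cannot move that median, because they already lie above it. By cluster it was 0.71 in Hoxa and 0.05 in Hoxb. These counts include rows whose sign the filter fixed, since Hoxc8, Hoxc13, Hoxd8 and Hoxd9 reached 0.05 FPKM through their Gdpd3-/- mean alone and Hoxb9 through its Gdpd3+/+ mean alone. Among the 17 rows with both means at 0.05 FPKM or more, 15 were above 0, against 60.4% of the 20085 such genes, and 12 were above the median of all genes, against 42.1%. Their median was 0.64 against 0.14. All 9 Hoxa rows are among the 17, and of Hoxc 2 rows remain, too few for a summary.

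By position, the fitted log2 fold changes of Hoxa2 to Hoxa6 lay between 0.54 and 1.14 (SE 0.19 to 1.18). Those of Hoxa7, Hoxa9 and Hoxa10 lay between 0.42 and 0.64 (SE 0.11 to 0.21). Under quantile normalization Hoxa2 and Hoxa4 fell to 0.31 and 0.11, below Hoxa9 at 0.54, while Hoxa5 and Hoxa6 stayed above it, at 0.93 and 0.64. In the Hoxb cluster, Hoxb2 to Hoxb5 lay between -0.003 and 0.17, Hoxb6 stood at 0.71, and Hoxb7 and Hoxb9 at -0.19 and -0.60. Hoxb6 was thus the Hoxb gene nearest to its Hoxa paralog, with Hoxa6 at 1.02, but its value (SE 0.60) rested mostly on Gdpd3-/- replicate 5. Hoxb6 was at 0.155, 0.157 and 0.134 FPKM in Gdpd3+/+ and at 0.745, 0.132 and 0.240 FPKM in Gdpd3-/- (limma, adjusted p = 0.506). The differences between the clusters and between positions were not tested.

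**Figure D4:**
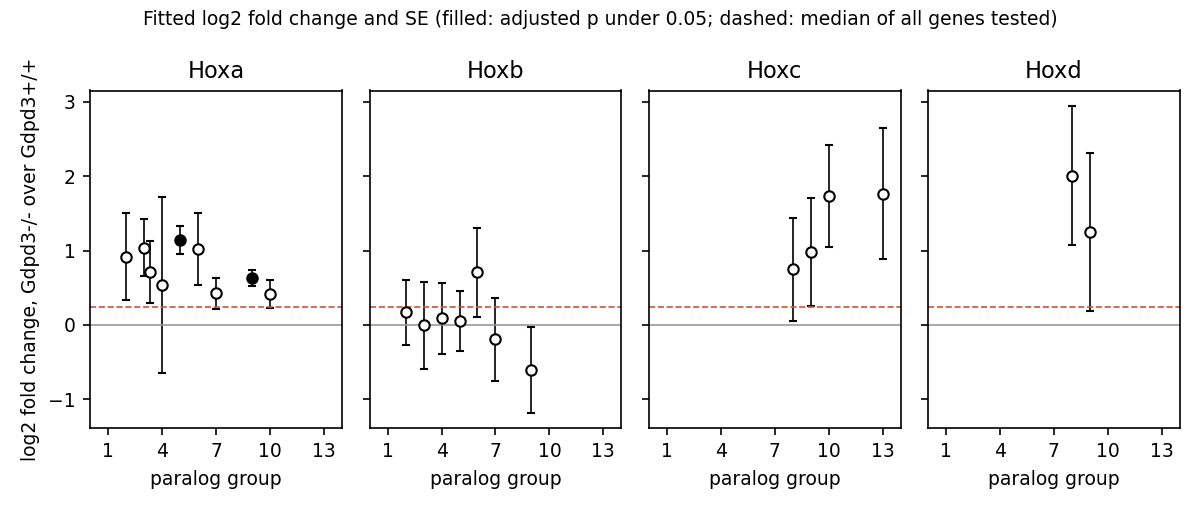
Fitted log2 fold change, Gdpd3-/- over Gdpd3+/+, with SE (vertical axis) of the 22 tested Hox rows by paralog group (horizontal axis) in each cluster, with the second Hoxa3 row set just right of Hoxa3. Filled points, Hoxa5 and Hoxa9, have an adjusted p under 0.05, the dashed line is the median of all genes at 0.24, and all 9 Hoxa points lie above it.

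The TALE cofactors did not pass the test, with 0 of 9 called (limma, and also with voom; 2 higher at an unadjusted p under 0.05). Meis1, the partner of Hoxa9 in leukaemia, was the highest of them, at 44.3, 40.9 and 39.6 FPKM in Gdpd3+/+ and 62.2, 43.6 and 56.4 FPKM in Gdpd3-/-, and its groups overlapped in replicate 6 of Gdpd3-/- and replicate 1 of Gdpd3+/+ (log2 fold change 0.36, SE 0.15; limma, adjusted p = 0.216). There was more Hoxa9 for each Meis1 transcript, with FPKM ratios of 0.356, 0.410 and 0.425 in Gdpd3+/+ and 0.440, 0.540 and 0.463 in Gdpd3-/-, though the gap between the nearest libraries was small. Pbx3, another partner of Hoxa9, was at 2.41, 2.69 and 2.51 FPKM and at 2.54, 2.38 and 1.64 FPKM (log2 fold change -0.23, SE 0.26; limma, adjusted p = 0.597).

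Of 20 genes that activate Hox transcription, 17 were tested and 0 were called (limma, and also with voom; 3 higher and 2 lower at an unadjusted p under 0.05). The caudal-type factors Cdx1, Cdx2 and Cdx4, which switch on Hox genes in the embryo, were at 0 in all libraries. Kmt2a, the MLL methyltransferase listed as Mll1, was at 3.33, 3.24 and 3.204 FPKM in Gdpd3+/+ and 4.81, 3.95 and 4.61 FPKM in Gdpd3-/- (log2 fold change 0.44, SE 0.18; limma, adjusted p = 0.221). Men1, which encodes menin, was at 15.6, 13.6 and 13.1 FPKM and at 25.2, 16.2 and 28.0 FPKM (log2 fold change 0.68, SE 0.22; limma, adjusted p = 0.138). Neither gene overlapped between genotypes, and Gdpd3-/- replicate 6 was the lowest of its group in both. In all, 4 of the 17 had every Gdpd3-/- library above, against 23.5% of all genes, and 3 every Gdpd3-/- library below, against 8.27%, and the median of the list was 0.12 (log2 fold change).

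Among 20 Polycomb genes, all tested, Cbx6, a chromodomain subunit of Polycomb repressive complex 1, was the 1 called gene, against 1.09% of all genes called higher. It rose from 9.01, 8.40 and 7.43 FPKM to 18.0, 14.7 and 15.7 FPKM (log2 fold change 0.95, SE 0.14; limma, adjusted p = 0.0365), and lost the call after scaling by a trimmed mean of M values and without any 1 of the Gdpd3+/+ libraries or Gdpd3-/- replicate 5. Over this list the median was 0.23 (log2 fold change), against 0.24 over all genes. Of the 20, 7 had every Gdpd3-/- library above, against 23.5% of all genes, and 1 had every Gdpd3-/- library below, against 8.27%. Bmi1, the Polycomb gene needed for stem cell self-renewal, was at 20.8, 19.9 and 17.1 FPKM and at 16.0, 18.9 and 18.8 FPKM (log2 fold change -0.11, SE 0.13; limma, adjusted p = 0.633). Ezh2, the methyltransferase of Polycomb repressive complex 2, was at 13.01, 14.7 and 14.9 FPKM and at 15.2, 17.7 and 14.9 FPKM (log2 fold change 0.16, SE 0.13; limma, adjusted p = 0.480). It is among the 7, but its nearest libraries were at 14.92 and 14.94 FPKM.

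Of 12 genes known as targets of Hoxa9 or Hoxa10, 3 were called higher and 1 lower, against 1.09% and 0.616% of all genes tested. The list was chosen with earlier results of these data known, so these counts are a description only. Flt3, a receptor tyrosine kinase of progenitors, rose from 11.01, 10.6 and 9.80 FPKM to 46.5, 37.8 and 36.8 FPKM (log2 fold change 1.93, SE 0.13; limma, adjusted p = 0.00562). Sox4, a transcription factor of early progenitors, rose from 17.4, 18.3 and 15.4 FPKM to 39.3, 41.1 and 37.1 FPKM (log2 fold change 1.20, SE 0.11; limma, adjusted p = 0.0141). Cd34, a surface sialomucin of progenitors, rose from 111, 111 and 105 FPKM to 187, 195 and 221 FPKM (log2 fold change 0.88, SE 0.10; limma, adjusted p = 0.0204). Cybb, the catalytic subunit of the phagocyte NADPH oxidase, fell from 58.9, 46.6 and 56.6 FPKM to 17.7, 13.9 and 19.6 FPKM (log2 fold change -1.66, SE 0.16; limma, adjusted p = 0.0171). All 4 separated the genotypes widely. Flt3 and Cd34 also belong to the 5 progenitor markers, of which they were the 2 called, and Cybb is a gene of mature myeloid cells, whose 9 granule markers lay lower in every Gdpd3-/- library. The list had a median of 0.24 (log2 fold change), as did all genes. The count of 4 became 1 without the intensity trend, and it was 0, 0 and 1 when Gdpd3+/+ replicate 1, 2 or 3 was left out. Over all genes, those 3 settings called 0, 1 and 21.

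**Figure D5:**
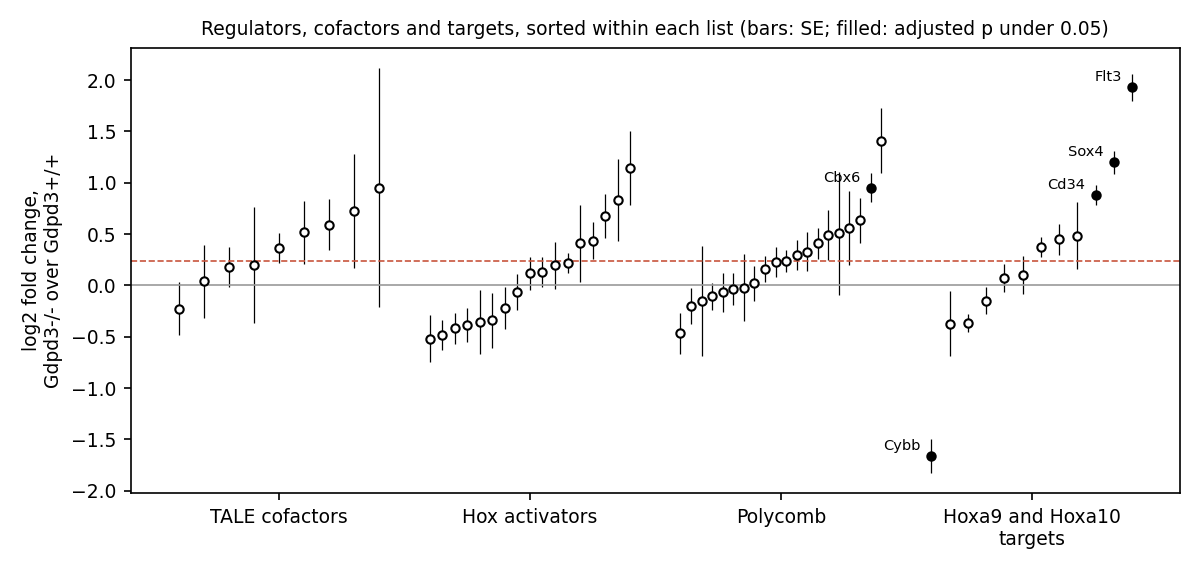
Fitted log2 fold change, Gdpd3-/- over Gdpd3+/+, with SE (vertical axis) of each tested gene of the 4 lists, sorted by value within a list (horizontal axis); filled points have an adjusted p under 0.05 and the dashed line is the median of all genes at 0.24. Flt3 at 1.93, Sox4 at 1.20, Cd34 at 0.88 and Cbx6 at 0.95 stand above, and Cybb at -1.66 below.

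The genes that flank the clusters were also examined, the 2 nearest protein-coding rows on each side. Of the 16, 12 were tested and 0 were called (limma, and also with voom; 2 higher and 1 lower at an unadjusted p under 0.05). Beside Hoxa, Skap2 was at 103, 101 and 106 FPKM in Gdpd3+/+ and 77.4, 85.8 and 107 FPKM in Gdpd3-/- (log2 fold change -0.21; limma, adjusted p = 0.384), and Hibadh overlapped as well (log2 fold change 0.18; limma, adjusted p = 0.357). Snx10, on the same side as Skap2, was at 24.5, 20.9 and 22.1 FPKM and at 29.9, 34.8 and 28.5 FPKM, without overlap (log2 fold change 0.46, SE 0.12; limma, adjusted p = 0.0983). Evx1 and Evx2, homeobox genes next to Hoxa13 and Hoxd13, were at 0 in every library. The ratio of Hoxa9 to Skap2 FPKM was 0.153 to 0.166 in Gdpd3+/+ and 0.245 to 0.354 in Gdpd3-/-, and that of Hoxa9 to Hibadh 0.278 to 0.287 and 0.374 to 0.404, without overlap. Against Snx10 the ratio overlapped, at 0.644, 0.801 and 0.763 in Gdpd3+/+ and 0.914, 0.677 and 0.918 in Gdpd3-/-.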

How the data were processed

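The 6 libraries were grouped by genotype as labelled, 3 for each. The authors made them from full-length cDNA, sequenced paired reads of 150 bases and deposited 1 FPKM table, with exon positions, for 36976 genes; the submitters' processing notes name cutadapt 1.16, STAR 2.6.1a, featureCounts 1.6.1, DESeq2 and mm9. A deposited DESeq2 comparison of the genotypes (base mean, log2 fold change, its error, Wald score, p and adjusted p) was not used. FPKM times gene length summed to the same total in every library, so FPKM is relative to all counts on genes. These products were whole multiples of 1 unit (tolerance 0.02 of it), and of the values above 0, 47.2% to 55.2% were multiples of 100 units, 16.2% to 20.0% ended in 50 and 3.65% to 4.50% in 33 or 67. The unit was therefore read as a hundredth of a count, with shared reads split, which gives the counts and the depth of 21.3 to 62.8 M quoted. The strand used in counting is not given in the sources used here.

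For the comparison, limma 3.58.1 (R 4.3.3) was run with trended variance on log2(FPKM + 0.1) of genes with a mean of at least 0.05 FPKM, without covariates, two-sided, with Benjamini-Hochberg adjustment over 24689 genes and a threshold of 0.05; the code was tested on simulated data. The authors call the 3 samples of each group biologically independent. How mice were divided among the libraries is not given in the sources used here. The p-values therefore measure only the spread between these libraries, which may be in part technical. Members with a mean of at least 1 FPKM in either genotype and called members were given in every library; of the lists, called genes and Meis1, Pbx3, Kmt2a, Men1, Bmi1, Ezh2 and Flt3 were named, and any other gene was picked after its values were seen; 1 member and 1 list gene are not reported here by name. The members and lists were chosen with earlier results of these data known. Alternatives changed the pseudocount, filter, scaling, model or libraries; 3 were added after seeing the data (voom on the recovered counts, immunoglobulin and muscle genes out of the total, Gdpd3-/- replicates 5 and 6 out). Promoter windows are from RefSeq (GRCm38.p6).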

Additional observations from a re-analysis of the deposited data

How the results depend on the processing

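No paired analysis was possible because the genotypes share no replicate number. The count of 2 Hox genes called higher became 0 with a pseudocount of 1, no filter, trimmed mean of M values, quantile normalization, array weights, a fit free of the intensity trend, and with immunoglobulin and muscle genes taken out of the total, and 1 without Gdpd3-/- replicates 5 and 6, where the lone library is assumed to vary like the rest. It ranged from 0 to 4 with 1 library left out. The count over all genes, 422, was 225 with a pseudocount of 1, 213 with no filter, 673 at a mean of at least 1 FPKM, 153 with no intensity trend, 240 with array weights, 903 with voom and 2294 without replicates 5 and 6. With 1 library left out it was lowest, at 0 (3356 at an unadjusted p under 0.05), when Gdpd3+/+ replicate 1 was the one dropped, and highest, at 3413, when Gdpd3-/- replicate 7 was. Of the calls, 270 of 422 were higher, but 112 of 366 under trimmed mean of M values, 119 of 325 under quantile normalization and 148 of 314 with immunoglobulin and muscle genes left out. The Hox median log2 fold change of 0.71 was 0.89 and 0.37 at pseudocounts of 0.01 and 1, 0.53 with no filter and at a mean of at least 1 FPKM, 0.54 under trimmed mean of M values, 0.31 under quantile normalization, 0.85 with voom and 0.48 without replicates 5 and 6, and 0.50 to 0.83 with 1 library left out. Hoxb5 turned to -0.15 and -0.47 under trimmed mean of M values and quantile normalization, to -0.035 with immunoglobulin and muscle genes left out, and to -0.024, -0.18 and -0.075 without Gdpd3+/+ replicate 1 and Gdpd3-/- replicates 6 and 7, and was highest without replicate 5, at 0.40. Hoxa4 turned to -0.31 at a pseudocount of 0.01, to -0.84 with voom and to -0.44 without Gdpd3-/- replicate 5, and its highest value with 1 library left out was 1.92, without replicate 6; Hoxa2 to -0.28 without replicates 5 and 6. Hoxa5, Hoxa6, Hoxa7, Hoxa9 and Hoxa10 stayed above 0 in all 17 alternatives. The Hoxa sum ratio of 1.61 was 1.38 under trimmed mean of M values and 1.52 to 1.69 with 1 library left out, the Hoxb ratio 1.01 and 1.13 to 1.23 with 0.717 under quantile normalization, and the Hoxc ratio 2.81 to 8.03. The Polycomb count of 1 was 0 under trimmed mean of M values, no intensity trend, array weights and without replicates 5 and 6, and 0 to 2 with 1 library left out. The target count of 4 was 1 with no intensity trend and 0 to 5 with 1 library left out, and the activator and neighbour counts were 0 to 1 and 0 to 2. The TALE count stayed at 0 in all 17. The causes were not tested. Counts were few for Hoxc and Hoxd, at 24 to 56 and 1.5 to 4 in all in the Gdpd3+/+ libraries and 42 to 243 and 20 to 194 in the shallower Gdpd3-/- libraries.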

Other observations

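The spans of the clusters hold 32 rows that are not coding Hox genes, mostly antisense and other non-coding transcripts. Of these, 15 were tested and 0 passed (limma; 3 at an unadjusted p under 0.05), with a median log2 fold change of 0.14 against 0.24 over all genes. Mir196b, a microRNA gene next to Hoxa9, was at 5.07, 3.71 and 3.96 FPKM in Gdpd3+/+ and 4.96, 3.41 and 5.99 FPKM in Gdpd3-/-, which overlap, and it shares bases with the Hoxa9 exons, so that its reads cannot be told from those of Hoxa9. Hoxb3os, antisense to Hoxb2 and Hoxb3, was at 0.754, 0.930 and 0.989 FPKM and at 0.784, 1.03 and 1.08 FPKM. The antisense transcript 2700086A05Rik was at 1.43, 1.47 and 1.55 FPKM and at 2.17, 1.62 and 1.22 FPKM. In the Hoxd span, Gm14426 was listed at 0 in the Gdpd3+/+ libraries and at 0.376, 2.65 and 0.160 FPKM in Gdpd3-/- replicates 5, 6 and 7, and 1700109F18Rik was at 0.0420, 0.0277 and 0.00852 FPKM and at 0.0490, 1.32 and 0.222 FPKM. Both were highest in replicate 6, the library with most Hoxd8. These rows were chosen after their values were seen.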
